A study of Saccharomyces cerevisiae with 12 samples.

Results

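Deletion of ADA2 was compared with wild type in budding yeast, Saccharomyces cerevisiae, with 3 arrays labelled ada2 deletion and 3 labelled wild type, which are 6 of the 12 arrays of the series. The members were chosen by title alone. The labels give both groups the genotype MATa his3 leu2 met15 ura3, and the ada2 group carries ada2Δ::KANR in addition. Each group was 1 strain grown as 3 biological replicates at 30 °C in rich medium, so an effect of the deletion and any other difference between these strains cannot be told apart. The series also holds 3 arrays of a nup60 deletion and 3 labelled as a deletion of both genes, which carry the same background genotype and the kanamycin marker at each deleted gene. RNA abundance was read as Affymetrix probe set intensity, and all levels below are log2 intensities of 1 probe set per gene.

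Ada2 is a subunit of SAGA, a large coactivator complex that is brought to promoters by activator proteins. It sits in a module with the acetyltransferase Gcn5, the protein Ngg1 (Ada3) and Sgf29, and it helps Gcn5 to acetylate histone H3 in nucleosomes. Other SAGA modules remove ubiquitin from histone H2B and deliver the TATA-binding protein. In yeast the complex is known for its part in genes that are switched by nutrients or stress, among them genes under Gcn4, the activator of amino acid synthesis.

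ADA2 itself read 10.96, 10.95 and 10.92 in the 3 wild-type arrays and 4.40, 4.03 and 4.26 in the 3 ada2 arrays. The ada2 readings all lay below 5.62, the level under which 95% of the probe sets for another yeast species on the same array fell, so the transcript was at least 40.1-fold lower (limma, adjusted p = 6.41e-12). NUP60, which is intact by its label, was slightly lower in ada2, 12.23 against 12.53. It no longer passed when wild-type array 2 (adjusted p = 0.0593), ada2 array 2 (0.0511) or array 3 (0.0648) was taken out. The neighbours of ADA2 on chromosome IV shifted little: UTP6 fell by 0.27 ± 0.039 (standard error, SE) on the log2 scale, and RPS17B differed by -0.10 ± 0.035. The RPS17B call did not hold when wild-type array 2 or 3, or ada2 array 1 or 3, was taken out (adjusted p 0.0861 to 0.13). URA3 and MET17, the gene behind met15, were below background in both groups. HIS3 read 12.45 in wild type and 12.53 in ada2 although the label gives his3. HMRA1, a transcript of the a mating type, was 11.47 in wild type and 11.32 in ada2 (adjusted p = 0.121). The median gene read between 11.21 and 11.28 on every array, and 123 to 148 genes per array of these 6 lay below background. Arrays correlated at 0.9987 or above within the ada2 group and at 0.9932 or above within wild type. Wild-type array 1 stood apart in its poly-A spike controls, at 8.95 against 6.82 to 7.09 on the other 5 arrays. Without it there were 1307 rises and 1251 falls, of which 72 and 56 reached 2-fold.

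Of 5449 genes tested, 2491 differed between ada2 and wild type at a Benjamini-Hochberg adjusted p below 0.05, which is 45.7% of them. Rises numbered 1237 (22.7%) and falls 1254 (23%). These shares are the background for the counts of rises and falls per list against wild type below. Most were small. The median size among called genes was 0.29 on the log2 scale, and 94.9% of them changed by less than 2-fold. A rise of at least 2-fold was seen for 68 genes (1.25%) and a fall of at least 2-fold for 58 genes with ADA2 itself (1.06%). At 4-fold these became 9 rises and 13 falls. In all 126 of the larger changes the 3 arrays of one group lay on one side of the 3 of the other, which held for 56.8% of all genes. No larger change lost its call or turned its direction in any of the 20 alternative settings in which it was tested. Genes read only by probe sets that share sequence with other transcripts were not tested when such sets were removed.

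**Figure D1:**
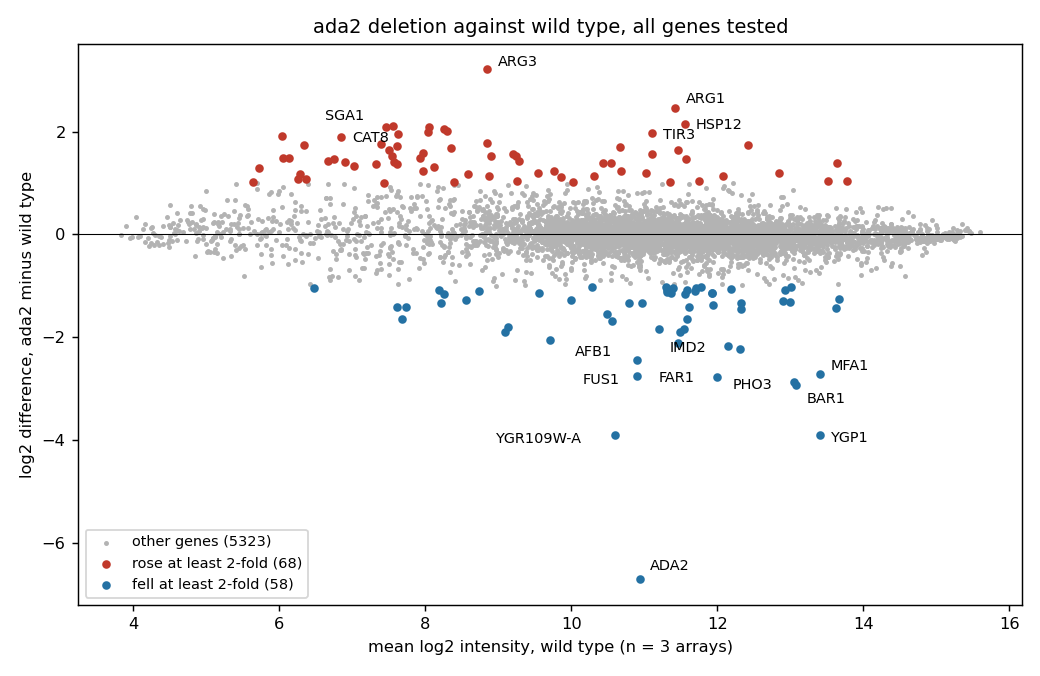
Log2 difference of ada2 minus wild type (vertical axis) against the mean log2 intensity in wild type (horizontal axis) for 5449 genes, with the larger changes in either direction (2-fold or more) coloured. Most of the 68 larger rises lie at low wild-type levels (median 8.37) while the 58 larger falls lie around the level of the median gene (11.46 against 11.26).

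Most of the larger rises came from genes that were quiet in wild type. Genes were ranked by wild-type level into 4 bins of 1362 or 1363. In the lowest bin 48 rose and 14 fell by at least 2-fold, whereas in the third bin 7 rose and 24 fell. The second bin held 8 such rises and 10 falls, and the highest 5 and 10. The median wild-type level was 8.37 for the larger rises, 11.46 for the larger falls and 11.26 for all genes. The share of genes called was similar in the bins, between 41.3% and 48.8%, while the counts of larger rises and falls differed. The wild-type level is itself part of the difference, and falls of genes near background are understated. The pattern is therefore partly set by the binning, and no conclusion is drawn from it. No chromosome stood apart, with median differences between -0.039 on chromosome VII and 0.037 on chromosome III. Among the larger changes, 10 pairs of genes were neighbours among measured genes, of which 7 moved the same way, such as SIP4 with ARG3 on chromosome X, XBP1 with SGA1 on chromosome IX, and FIT2, FIT3 and FRE5 in a run on chromosome XV. In 3 pairs the neighbours moved in opposite directions, namely FUS1 with HBN1, BAR1 with YIL014C-A, and YDR222W with CRF1.

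Genes of mating fell together. Cells of the a mating type make the peptide a-factor, read the partner's alpha-factor with a receptor, and destroy excess alpha-factor with a protease. All 8 measured genes of the a-specific list fell, with a median difference of -1.21, beside a median of -0.01 over all genes. BAR1, the protease that destroys alpha-factor, read 13.09, 13.09 and 13.03 in wild type and 10.03, 10.22 and 10.16 in ada2. It fell 7.64-fold (-2.93 ± 0.072, adjusted p = 7.85e-10), and the 2 sets of arrays were far apart. MFA1, which encodes a-factor, read 13.28, 13.51 and 13.42 in wild type and 10.70, 10.64 and 10.73 in ada2, a 6.56-fold fall. MFA2, the second a-factor gene, read 14.17, 14.32 and 14.22 against 13.80, 13.99 and 13.82. It fell only 1.29-fold (-0.37 ± 0.063, adjusted p = 0.00079), so the pair of genes for one pheromone differed widely in size of change. AFB1, which encodes a secreted barrier to a-factor, was placed in this list although it is a gene of alpha cells. It went from a mean of 10.89 to 8.45, a 5.43-fold fall, and the list's count and median include it. AGA2, the adhesion subunit of a-agglutinin, fell 2.74-fold, and the a-factor exporter STE6 fell 1.96-fold. ASG7 fell 1.82-fold and the alpha-factor receptor STE2 fell 1.45-fold.

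Genes of the alpha-specific list did not take their place. AFB1, a gene of alpha cells kept outside that list, fell (-2.44), as given above. STE3, the a-factor receptor of alpha cells, read 7.72 in wild type and 7.68 in ada2, and SAG1, alpha-agglutinin, read 10.27 and 10.32. MF(ALPHA)2 read 7.28 and 7.49 (adjusted p = 0.122) and HMLALPHA1 read 4.73 and 5.02, below background in both, with a call only when ada2 array 3 was left out (adjusted p = 0.0189) or each array was centred on its median (0.0472). MF(ALPHA)1 was called higher, at 4.78 and 5.19, but both means lie below background and no fold is given. Without AFB1, the range of these markers was thus 4.73 to 10.27 in wild type and 5.02 to 10.32 in ada2. MCM1, the factor that binds at a-specific genes and also takes part in arginine control, fell by 0.44 ± 0.065 (12.52 to 12.08, adjusted p = 0.000301).

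The pheromone pathway carries the signal from the receptor through a G protein and a kinase cascade to the activator Ste12. Of 19 measured components, 12 fell and 1 rose, with a median of -0.30. FAR1, which arrests the cell cycle in response to pheromone, read 12.17, 11.99 and 11.81 in wild type and 9.07, 9.26 and 9.32 in ada2, a 6.84-fold fall (-2.77 ± 0.117, adjusted p = 2.25e-08). SST2, which shuts the G protein off, read 11.69, 11.47 and 11.47 against 9.59, 9.76 and 9.76, a 3.58-fold fall. In both genes every ada2 array lay more than the spread of either group below wild type. The mitogen-activated kinase FUS3 fell 2.20-fold, from a mean of 11.37 to 10.23, and its relative KSS1 fell 1.36-fold. Among the G protein subunits, GPA1 (alpha) fell 1.87-fold and STE4 (beta) fell by 0.48 on the log2 scale, while STE18 (gamma) read 9.92 and 9.96 (adjusted p = 0.592). STE12 fell by 0.55 ± 0.146 (adjusted p = 0.0109) from 12.18, 11.74 and 11.60 to 11.21, 11.25 and 11.42, where wild-type array 1 was the highest of the 6. The adaptor STE50 (adjusted p = 0.47) and the polarity protein BEM1 (0.955) did not pass. The 1 component called higher, DIG2, a repressor of Ste12, lost its call without wild-type array 1 (adjusted p = 0.11) or any of the 3 ada2 arrays (0.0671 to 0.0973), and 2 components were called higher without wild-type array 2.

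Of 18 genes induced by pheromone, 10 fell and 3 rose, with a median of -0.46. FUS1, a membrane protein of cell fusion, read 10.86, 10.92 and 10.91 in wild type and 8.14, 8.24 and 8.02 in ada2. It fell 6.79-fold (-2.76 ± 0.094, adjusted p = 4.80e-09). PRM1, which acts in fusion of the plasma membranes, fell 2.52-fold, AGA1, the anchor subunit of a-agglutinin, fell 2.11-fold, and KAR4, a regulator of nuclear fusion genes, fell 1.56-fold. PRM5 fell 1.84-fold, PRM4 and PRM10 fell by 0.85 each on the log2 scale, and FIG1 fell 1.74-fold. The 3 that rose did so by less than 1.2-fold, namely SCW10, HYM1 and FIG2, and the call for FIG2 was lost without wild-type array 2 (adjusted p = 0.0836) or 3 (0.0586) or ada2 array 1 (0.0745) or 3 (0.0714). PRM2 and PRM3 did not pass. Of 10 genes used in haploid cells of either mating type, 7 fell and none rose, several of them shared with the signalling list. HO, the mating-type switching endonuclease, read 12.35, 12.29 and 12.31 against 10.85, 11.02 and 11.06, a 2.53-fold fall, and AXL1, a protease that matures a-factor, fell 1.46-fold. RME1, a repressor of meiosis, read 11.95 and 11.97 (adjusted p = 0.756).

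**Figure D2:**
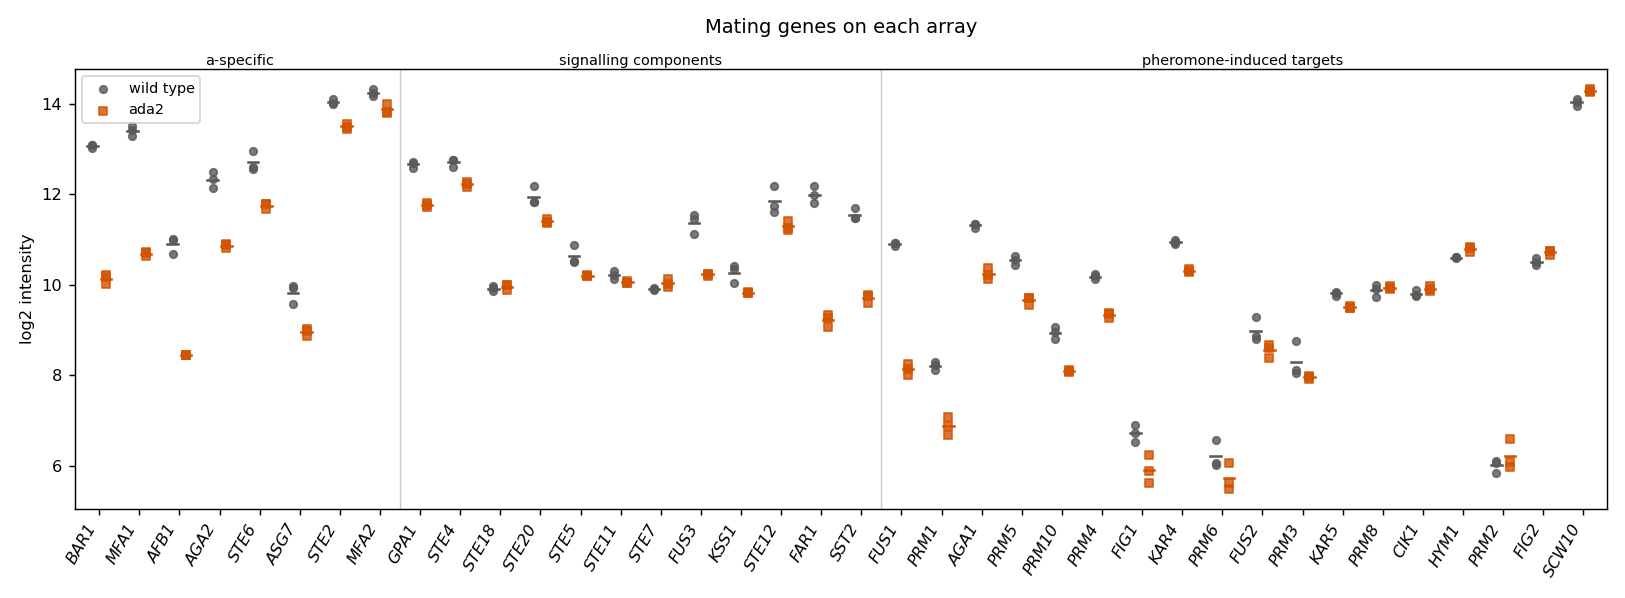
Log2 intensity of a-specific, pheromone signalling and pheromone-induced genes on each of the 6 arrays, wild type and ada2 side by side. AFB1, a gene of alpha cells, is drawn in the a-specific group. Each point is 1 array and the short line is the group mean. The 3 ada2 points of BAR1, MFA1, AFB1, FAR1 and FUS1 sit more than 2 log2 units below wild type. Those of MFA2 and STE2 lie closer to it.

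The falls outside mating were varied in function. YGP1, a secreted glycoprotein that responds to nutrient limitation, read 13.36, 13.41 and 13.45 in wild type and 9.46, 9.28 and 9.76 in ada2. It fell 15.0-fold (-3.91 ± 0.120, adjusted p = 2.12e-09). YGR109W-A, which encodes the Gag protein of a Ty3 retrotransposon, fell 15.1-fold, from 10.32, 10.67 and 10.80 to 6.69, 6.63 and 6.72. Its probe set is marked as sharing sequence with other transcripts, so which copies it reads is uncertain. Its neighbour CLB6, an S-phase cyclin, fell 2.12-fold, from a mean of 11.58 to 10.49. The acid phosphatases split. PHO3, the constitutive form, read 12.94, 13.12 and 13.07 against 10.32, 10.06 and 10.13, a 7.33-fold fall. PHO5, the phosphate-starvation form that lies beside it on chromosome II, read 9.05, 8.89 and 8.86 against 9.74, 9.81 and 9.77, a 1.79-fold rise (0.84 ± 0.049, adjusted p = 2.81e-07). Of 24 genes of phosphate supply, 5 rose and 6 fell, beside 22.7% and 23% over all genes, with a median of -0.01. The phosphate transporter PHO84 was among those that fell (-0.55 ± 0.114, adjusted p = 0.00257).

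Other falls of more than 3-fold were YRO2 (4.69-fold), IMD2, an IMP dehydrogenase of guanine nucleotide synthesis (4.52-fold, on a probe set with shared sequence), ATF2, an alcohol acetyltransferase (4.34-fold), CIS1 (4.15-fold), and RGM1, a zinc-finger protein (3.72-fold). YCL021W-A fell 3.72-fold, from 11.50, 11.47 and 11.48 to 9.54, 9.59 and 9.64. The metalloreductase FRE7 fell 3.59-fold, NCA3 3.48-fold, IZH4 3.23-fold, NDJ1, a telomere protein of meiosis, 3.14-fold, and SFK1 3.12-fold. Of 13 cyclin and SIC1 genes, 7 fell and 3 rose, with a median of -0.28. The G1 cyclin CLN1 fell 1.70-fold (11.75 to 10.99) while the mitotic cyclin CLB1 rose 1.86-fold (12.08 to 12.98) and its close relative CLB2 fell 1.51-fold (10.78 to 10.18). Of 22 multidrug transporters and their regulators, 9 fell and 3 rose, beside 23% and 22.7% over all genes, with a median of -0.11. QDR2 fell 2.60-fold, the regulator PDR3 1.52-fold and the main drug pump PDR5 1.39-fold, whereas AQR1 rose 1.88-fold, TPO2 1.71-fold and PDR10 1.57-fold.

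Arginine synthesis held the largest rises in the comparison. The pathway builds ornithine in the mitochondrion, and Arg3, Arg1 and Arg4 turn it into arginine in the cytosol. ARG3, ornithine carbamoyltransferase, read 8.86, 8.78 and 8.89 in wild type and 12.25, 11.95 and 11.97 in ada2. It rose 9.27-fold (3.21 ± 0.099, adjusted p = 2.12e-09). ARG1, argininosuccinate synthetase, read 11.39, 11.42 and 11.43 against 14.01, 13.73 and 13.88, a 5.51-fold rise, so the enzymes of consecutive steps moved together. The argininosuccinate lyase ARG4 rose 1.47-fold, ARG7 1.60-fold, ARG8 1.55-fold and the carbamoyl phosphate synthetase subunit CPA1 1.29-fold. ARG2, the first step, read 10.30 and 10.36 (adjusted p = 0.226), and the ornithine carrier ORT1 read 10.53 and 10.48 (0.522). In all, 6 of 8 measured genes rose and none fell, with a median of 0.60.

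The breakdown side did not follow one direction. CAR2, ornithine transaminase, read 13.06, 13.19 and 13.22 against 12.16, 12.22 and 12.22 and fell 1.93-fold, while CAR1, arginase, read 13.72 and 13.94 (0.22 ± 0.064, adjusted p = 0.0173, and 0.0547 without ada2 array 1). PUT4, a proline permease, rose 3.40-fold, from 7.31, 7.44 and 7.41 to 9.20, 8.99 and 9.26. Of 12 genes of arginine breakdown, uptake and regulation, 4 rose and 5 fell. The count of rises became 1 without ada2 array 1 and 2 without ada2 array 3. ARG81, a regulator that acts with Mcm1, fell by 0.49 ± 0.145 (adjusted p = 0.0179, and 0.0631 without ada2 array 3).

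GCN4, the activator of amino acid synthesis, rose by 0.20 ± 0.029 (14.77 to 14.97, adjusted p = 0.000279). In a list of 42 further amino acid genes that includes GCN4, 17 rose and 10 fell with a median of 0.03. Single branches of that list were tallied after their values were seen. Of its 8 lysine genes, 6 rose and 1 fell, with LYS1 up 1.81-fold (10.71 to 11.56), LYS20 up 1.41-fold and LYS21 up 1.21-fold, while LYS4 fell 1.18-fold. Of its 10 leucine, isoleucine and valine genes, 3 rose and 6 fell. LEU9, an isopropylmalate synthase, read 12.95, 12.92 and 12.81 against 11.68, 11.50 and 11.60 and fell 2.46-fold, whereas its paralogue LEU4 rose 1.21-fold (13.49 to 13.77). LEU1, the next enzyme, fell 1.95-fold, the aminotransferase BAT1 1.57-fold, ILV3 1.46-fold and ILV2 1.33-fold, while ILV6 rose 1.12-fold. OAC1, a mitochondrial carrier used in leucine synthesis, fell 2.03-fold, BIO2, biotin synthase, fell 2.51-fold, and TAT1, an amino acid permease, fell 2.12-fold. These last 3 genes were picked after their values were seen.

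**Figure D3:**
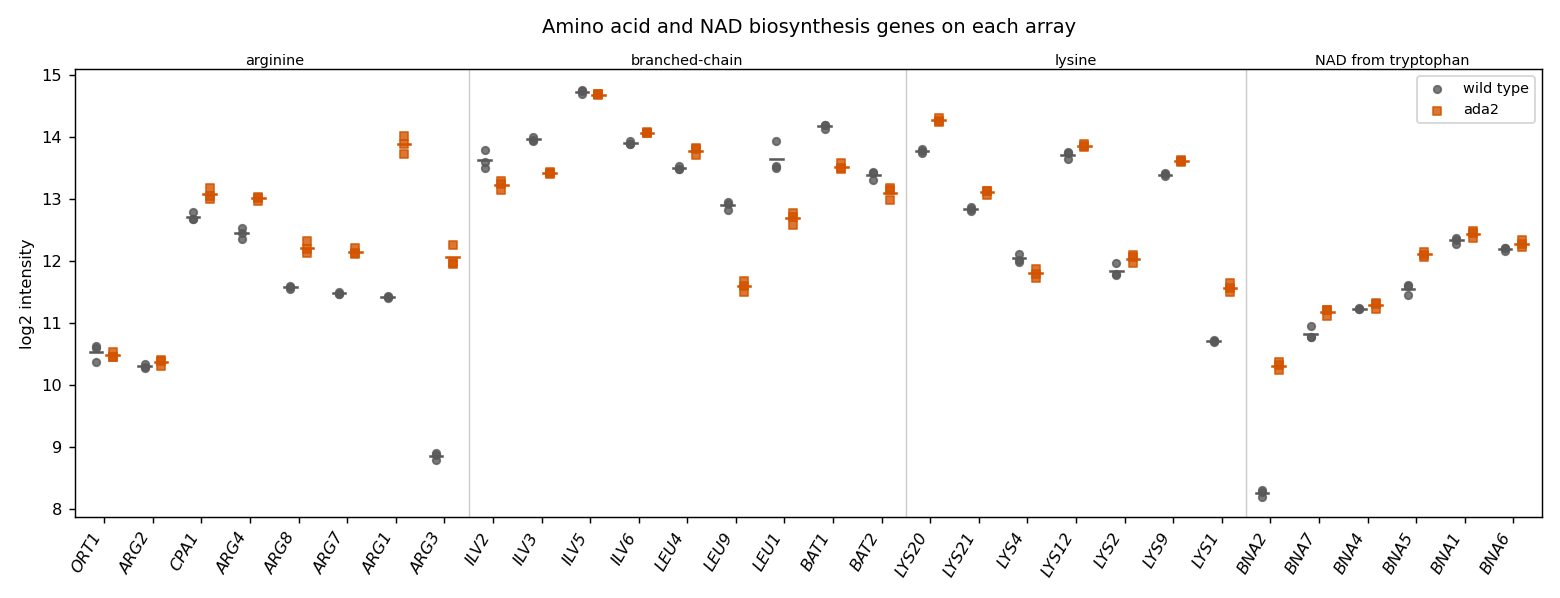
Log2 intensity of genes of arginine, branched-chain amino acid, lysine and NAD synthesis on each of the 6 arrays, with 1 point per array and the groups side by side. ARG3 and ARG1 rise by more than 2 log2 units with no overlap, LEU9 and LEU1 fall, and the 3 points of a group lie close together in most genes.

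Synthesis of NAD from tryptophan showed a rise at its first step. BNA2, the dioxygenase that opens the tryptophan ring, read 8.31, 8.28 and 8.19 in wild type and 10.23, 10.32 and 10.36 in ada2, a 4.13-fold rise (2.05 ± 0.044, adjusted p = 3.79e-10). BNA5 rose 1.47-fold, BNA3 1.33-fold and BNA7 1.28-fold, but BNA1, BNA4 and BNA6 did not pass (adjusted p 0.086, 0.192 and 0.266). In the salvage and final steps NPT1 fell 1.17-fold and NMA1 fell 1.32-fold. Of 14 NAD genes, 5 rose and 3 fell, with a median of 0.09. Thiamine genes gave 5 rises and no fall among 13, led by THI13, at 8.59 and 9.77 (2.27-fold), and by the activator THI2 (1.68-fold), with a median of 0.03. PET18 of this list was called lower without ada2 array 1 or 3 (adjusted p 0.0497 and 0.0466).

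Many genes that yeast keeps low on glucose were higher in ada2. Of 18 genes of gluconeogenesis, the glyoxylate cycle and their activator Cat8, 14 rose and none fell, with a median of 0.46. CAT8 read 7.13, 6.79 and 6.61 in wild type and 8.67, 8.80 and 8.78 in ada2, a 3.74-fold rise (1.90 ± 0.107, adjusted p = 2.13e-07), and SIP4, an activator that works beside it, rose 2.25-fold. The carnitine acetyltransferase YAT1 read 9.07, 9.33 and 9.21 against 10.75, 10.77 and 10.81 and rose 2.98-fold. PCK1, which commits carbon to gluconeogenesis, rose 2.02-fold, the activator ADR1 1.69-fold and ICL1, isocitrate lyase, 1.41-fold. MLS1, malate synthase, was lower by 0.13 ± 0.104 (adjusted p = 0.33), and JEN1 and IDP2 did not pass either. ADH2, the alcohol dehydrogenase that consumes ethanol, read 8.60 and 8.38 (adjusted p = 0.0501). It was called lower without wild-type array 1 (-0.31, adjusted p = 0.00429) and in several other settings, such as array weights (-0.29, adjusted p = 0.00094).

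Genes of sugar uptake and phosphorylation rose more often than they fell, 9 against 2 among 22 of hexose transport and sensing. HXK1, the hexokinase of non-glucose growth, read 11.56, 11.62 and 11.55 against 12.99, 13.08 and 13.08, a 2.78-fold rise. Glucokinase GLK1 rose 2.28-fold (12.84 to 14.03), while HXK2, the hexokinase of growth on glucose, read 14.74 and 14.79 (adjusted p = 0.228). The transporters HXT9 and HXT7 rose 2.59-fold and 2.07-fold, the second on a probe set with shared sequence, and HXT2 rose by 0.59 on the log2 scale. HXT1, HXT3 and HXT4 did not pass. Of 7 galactose genes, 5 rose and none fell, by 1.67-fold for GAL3, 1.64-fold for GAL10 and 1.57-fold for GAL7. Without wild-type array 3 or ada2 array 3 that count was 3. The glycogen genes gave 7 rises and no fall among 12, with a median of 0.30, from SGA1, a glucoamylase of sporulating cells (7.46 to 9.55, 4.26-fold), through the branching enzyme GLC3 (2.30-fold) to GDB1 (1.77-fold). GPH1, glycogen phosphorylase, read 9.42 and 9.40 (adjusted p = 0.929).

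Stress genes differed in main direction between lists, and whether their regulators account for this was not tested. Of 30 targets of the general stress activators Msn2 and Msn4, 19 rose and 4 fell, with a median of 0.31. HSP12, a small membrane-protecting protein, read 11.46, 11.67 and 11.54 in wild type and 13.76, 13.77 and 13.62 in ada2, a 4.47-fold rise (2.16 ± 0.062, adjusted p = 1.37e-09). XBP1, a repressor made under stress, rose 2.65-fold, SOL4 2.48-fold, TMA10 2.20-fold, and TSL1, of trehalose synthesis, 1.97-fold. YGP1, described above, is in the same list and was its lowest member at -3.91. The count of falls was 2 without ada2 array 1. Of 23 chaperone genes under the heat shock factor Hsf1, 13 fell and 2 rose, with a median of -0.21. HSP82, the inducible Hsp90, read 13.46, 13.29 and 13.32 against 12.63, 12.66 and 12.71, a 1.61-fold fall. BTN2 fell 2.23-fold, CUR1 1.71-fold and CPR6 1.42-fold, whereas HSP26, a small heat shock protein that Msn2 and Msn4 also drive, rose 3.24-fold (10.67 to 12.36). The other rise, HSP42, was lost without wild-type array 1 (adjusted p = 0.0643) or ada2 array 3 (0.0986).

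Further large rises belonged to none of the lists above. TIR3, a cell wall mannoprotein, read 11.01, 11.18 and 11.11 against 13.02, 13.07 and 13.12, a 3.91-fold rise, while its relatives TIR1 and TIR2 did not pass (adjusted p 0.615 and 0.0998). Of the 8 TIR and DAN mannoprotein genes, 2 rose and none fell, with a median of 0.20. Among cell surface genes, HPF1 rose 3.13-fold, the aspartyl protease YPS6 3.13-fold and WSC4 2.95-fold. CLD1, which trims cardiolipin in mitochondria, rose 4.24-fold (8.05 to 10.13), FMP48 4.01-fold and CYC7, the minor cytochrome c, 3.21-fold. RTC2, a vacuolar membrane protein, rose 4.33-fold, ECM13 4.07-fold, and PRY1, a sterol-binding secreted protein, 3.33-fold from the high level of 12.42. The siderophore-binding mannoproteins FIT2 and FIT3 and the reductase FRE5, picked after their values were seen, rose 2.63-fold, 2.06-fold and 2.10-fold. FIT2 read 13.41, 13.62 and 13.89 in wild type and 15.07, 14.99 and 15.05 in ada2, with a wider spread in wild type than in ada2.

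Meiosis and sporulation genes went both ways, with 6 rises and 9 falls among 27, beside 22.7% and 23% over all genes. RIM4, an RNA-binding regulator of meiosis, rose 2.77-fold (6.75 to 8.22) and DIT1, of the spore wall, rose 2.59-fold. SPS4 fell 2.43-fold, REC104 1.87-fold and SMK1 1.82-fold, and ZIP1, of the synaptonemal complex, fell from a mean of 8.97 to 7.97. IME1, the master activator of meiosis, read 9.91 and 9.96 (adjusted p = 0.503).

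Transcripts of Ada2's own partners changed little. GCN5 read 11.23 and 11.47 (0.24 ± 0.073, adjusted p = 0.0207), and it did not pass when wild-type array 1 (0.0615), ada2 array 1 (0.0501) or array 2 (0.0655) was taken out. NGG1, SGF29, AHC1 and AHC2 did not pass, with differences from -0.12 for NGG1 to 0.09 for SGF29. In the deubiquitinase module UBP8, the protease, fell by 0.48 ± 0.056. Of 13 core, TBP-binding and TAF subunits of SAGA, 1 rose and 2 fell. The rise was lost without wild-type array 1 or ada2 array 1 or 3, and 1 fall without wild-type array 3 or ada2 array 1 or 2. Of 32 subunits of other acetyltransferases and deacetylases, 6 rose and 4 fell, beside 22.7% and 23% over all genes, with a median of 0.02. HST3, a deacetylase of histone H3, fell 1.41-fold. These counts became 3 rises without wild-type array 2 and 2 falls without ada2 array 1. BUR6, a subunit of the TBP-binding repressor NC2, rose by 0.45 ± 0.041 (12.64 to 13.09) and was the 1 rise among 18 genes of TBP, the general factors and the Mediator tail. Of 10 histone genes, 5 rose and 1 fell by no more than 0.26, and the count of rises was 3 without any of wild-type arrays 1 and 2 or ada2 arrays 1 and 2.

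Ribosome genes that passed mostly fell, by small amounts. Of 60 ribosome biogenesis genes, 27 fell and 1 rose, with a median of -0.17 and a lowest value of -0.40. Of 122 ribosomal protein genes, 39 fell, 1 rose and 82 were not called, with a median of -0.07. Over all genes 23% fell and 22.7% rose. The 1 rise in each list was lost without wild-type array 1 or ada2 array 1. The ribosomal protein count of falls was unstable, at 9 with each array centred on its median, 72 with an intensity trend, and between 15 and 19 without wild-type array 2 or 3 or ada2 array 1 or 3. The values per list are drawn together in the plot of lists.

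**Figure D4:**
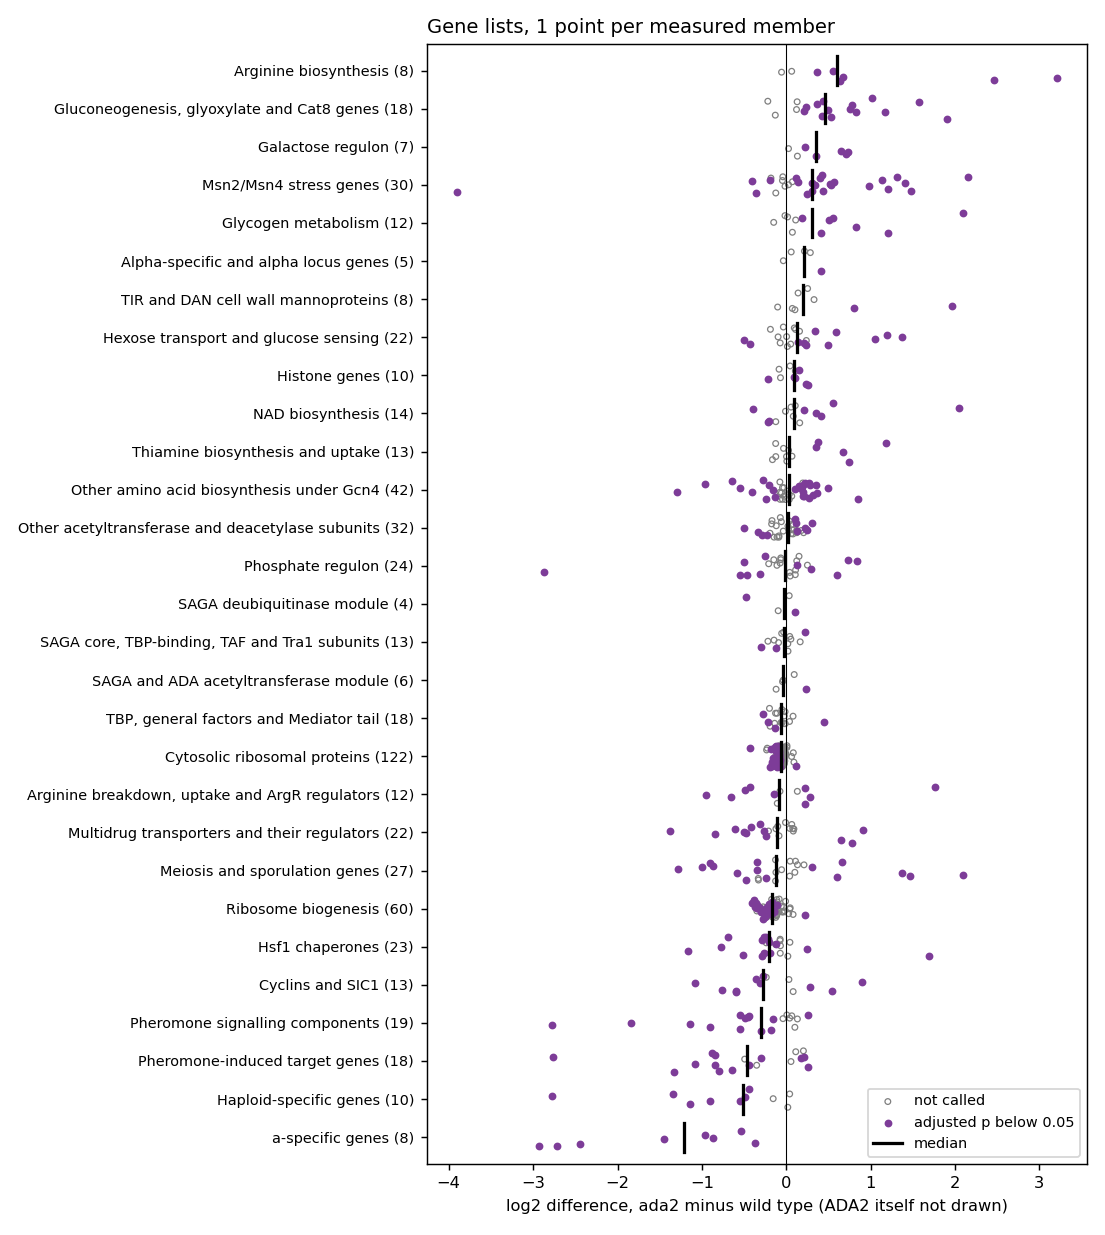
Log2 difference of ada2 minus wild type (horizontal axis) for the members of each gene list (vertical axis). Each point is 1 gene and the bar is the list's median. ADA2 itself is not drawn, and neither are all genes tested (median -0.01). The a-specific list lies wholly below 0 (median -1.21), arginine synthesis and the Cat8 list lie mostly above it (0.60 and 0.46), and the ribosomal lists sit narrowly around -0.17 and -0.07.

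The same genes were read against the nup60 deletion, a strain without a protein of the nuclear pore basket that still has ADA2. This test shares the ada2 arrays with the comparison above, so it asks only whether ada2 differs from another deletion strain as well. Over all genes 52.8% differed between ada2 and nup60, with ada2 higher for 26.9% and lower for 25.9%. Of the 57 larger falls other than ADA2, 55 were also lower in ada2 than in nup60. The exceptions were IMD2, higher in ada2 by 0.29 (9.97 against 9.68 in nup60), and FAA3, which did not pass (adjusted p = 0.121). Of the 68 larger rises, 42 were higher in ada2 than in nup60, 16 were lower and 10 did not pass. ARG1 and ARG3 were among the higher ones, by 2.71 and 2.80, as were TIR3 (1.89), HPF1 (2.35) and YAT1 (1.38). HSP26 was lower in ada2 than in nup60, with a mean of 12.36 against 14.06 (-1.70 ± 0.058), and HSP12 (13.71 against 14.88), CYC7 (10.03 against 10.97) and GLC3 (10.75 against 11.78) were lower too.

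The lists gave the same picture of the stress genes. All 30 Msn2 and Msn4 targets were lower in ada2 than in nup60, with a median of -1.38, although 19 of them were higher in ada2 than in wild type. The Hsf1 chaperones were lower in 19 of 23 (median -0.41) and the glycogen genes in 8 of 12 (-0.63). Arginine synthesis was higher in 6 of 8 genes (0.63). All 8 genes of the a-specific list, which includes AFB1, were lower (-1.54). Ribosome biogenesis was higher in 28 of 60 (0.16), against 27 falls relative to wild type.

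By their labels, the 3 double deletion arrays against the 3 of nup60 read loss of ADA2 in the nup60 background. They give a reading of the same genes on arrays whose levels the comparison with wild type did not use. The arrays labelled double deletion carry transcripts that go against their label. They read 11.73 for HMLALPHA1, 4.38 for HMRA1 and 12.77 for URA3, where the nup60 arrays read 4.88, 11.17 and 4.38, so this comparison also compares mating type and an intact URA3 transcript. Over all genes 63.7% differed, with 33.1% higher and 30.6% lower. Of the 68 larger rises, 53 were again higher, 7 were lower and 8 did not pass, with a median of 0.78. Of the 57 larger falls, 46 were again lower, 6 were higher and 5 did not pass, with a median of -0.73. The background median over all genes was 0.02. The poly-A spike controls read 7.39, 7.99 and 9.14 on the double deletion arrays, each above every nup60 array. The groups therefore differ in spike level too, with double deletion array 3 the highest. With the spike level as a covariate, 54 of the rises were called higher and 47 of the falls lower. Without wild-type array 1 and double deletion array 3 these counts were 54 and 48.

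Among the rises, PUT4 (2.44), SGA1 (2.19), CAT8 (1.65), CLD1 (1.56) and BNA2 (1.48) were higher again, where the differences from wild type were 1.77, 2.09, 1.90, 2.08 and 2.05. ARG3 and ARG1 differed by 0.71 and 0.99, against 3.21 and 2.46. Among the falls outside mating, YGP1 (-1.59), PHO3 (-1.67), RGM1 (-1.80), IZH4 (-2.35) and ATF2 (-1.59) were lower again. HSP12 read 14.88 in nup60 and 14.87 in the labelled double deletion (-0.01, adjusted p = 0.934), after a rise of 2.16 against wild type. FAR1 read 11.65 and 11.48 (-0.17, adjusted p = 0.23), after a fall of 2.77. The effect differed between the backgrounds, by the interaction term, for 39.2% of all genes and for 47 of the 68 larger rises and 42 of the 57 larger falls. That term contains the difference of ada2 from wild type, by which the larger changes were chosen. Their higher share is therefore partly set by that choice, and no conclusion is drawn from it. For mating genes the change of mating type in the labelled double deletion cannot be told apart from the effect of ADA2.

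**Figure D5:**
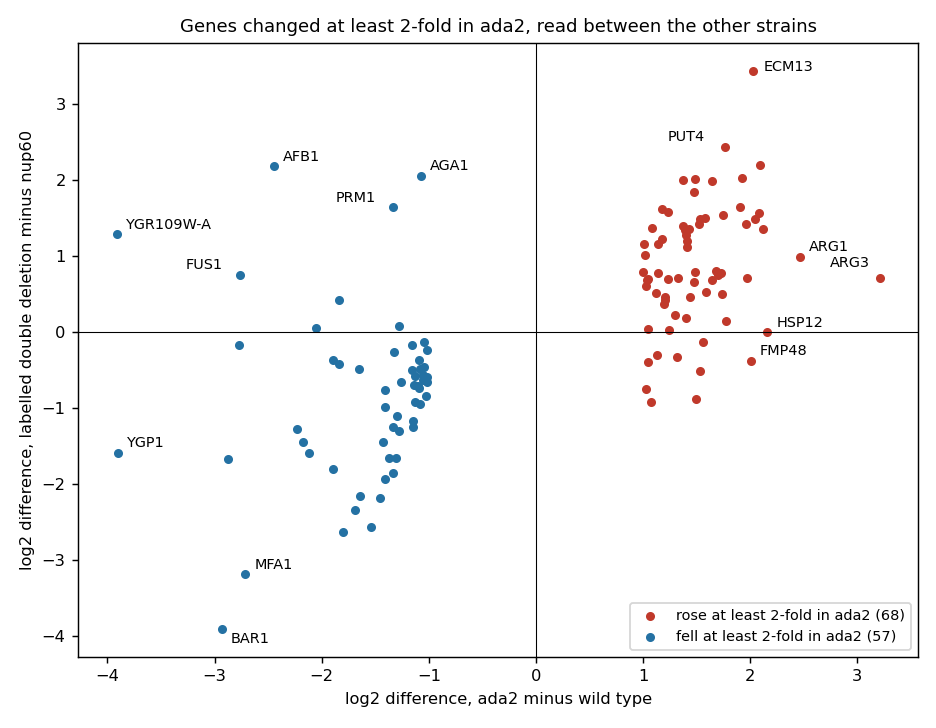
Log2 difference of the labelled double deletion minus nup60 (vertical axis) against ada2 minus wild type (horizontal axis) for the genes that rose or fell at least 2-fold in ada2, 1 point per gene and no arrays in common. Most rises lie in the upper right (53 of 68 called higher) and most falls in the lower left (46 of 57 called lower), with AFB1, AGA1 and PRM1 among the falls that lie above 0.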

How the data were processed

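RNA from yeast cultures was hybridised to Affymetrix yeast arrays, 1 per sample. The authors deposited 1 intensity per probe set. Per the submitters' processing notes, RMA and the program Affymetrix Expression Console 1.1 were used. The deposited values run from 11.39 to 51828.16, so they are linear and log2 was taken here. The genome build behind the probe sets is not given in the sources used here.

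Of 10928 probe sets, 213 controls, 1746 of S. pombe, 3470 without a gene and 1 with several genes were set aside. The other 5498 stand for 5449 genes, and of the probe sets of 1 gene (47 genes had several) that with the highest mean was used. On 115 genes the probe set shares sequence with other transcripts. Background is the 95th percentile of the S. pombe probe sets (5.62). Symbols and neighbours came from RefSeq assembly R64.

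The test was limma (version 3.58.1, R 4.3.3), fitted to the 12 arrays with 1 coefficient per group. Variances were moderated by empirical Bayes, with 8 residual and 2.58 prior df. P-values were adjusted by Benjamini-Hochberg over all genes and measure the spread between these replicate cultures. The double deletion and interaction contrasts were added after seeing the data. The members and the 29 gene lists were chosen with earlier results of these data known. Named genes are ADA2 and its neighbours, marker genes, the 25 largest rises and falls without overlap, up to 6 changed members per list, and all members of lists of 14 or fewer. Others fall outside these rules, such as ADH2, HXT1, STE50, PRM2, DIG2 and GCN4 from longer lists. Only some of these others are stated as picked later. Promoter sequences were not used here.

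In simulated data on 5449 genes with 200 changed, this comparison recovered 49.5%, 88% and 100% at log2 changes of 0.25, 0.5 and 1, with 3, 12 and 15 false calls. The simulation drew independent normal noise for each gene and changed 200 genes, where 2491 were called in the data. Its false calls need not carry over to them. The number of arrays and the background limit the precision. Alternatives were 2 normalizations, removal of dim or shared-sequence probe sets, other moderation, array weights, fewer arrays, a replicate block, a spike covariate and an adjusted p of 0.01. Tables and figures used Python 3.11.15.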

Additional observations from a re-analysis of the deposited data

Results flagged for a closer look

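The effect of ADA2 loss on the larger changes was set against its effect in the nup60 background, with the labelled double deletion minus nup60 as the second effect and the interaction term as the test of the difference. It passed for 47 of the 68 rises and for 42 of the 57 falls, beside 39.2% of all genes. The choice of these genes by their difference from wild type, a part of the term, partly sets that higher share. Genes called in opposite directions in the 2 backgrounds are listed here with their log2 difference in the nup60 background. Of the rises, FMP48 was lower there by its value of -0.38, FRE5 stood at -0.93, ICY1 at -0.30 and SOL4, a 6-phosphogluconolactonase-like protein, at -0.33. YBR013C stood at -0.88, YIL014C-A at -0.75 and YTP1 at -0.51. Of the falls, mating genes made up most of those that were higher there: AFB1 by 2.18, AGA1 by 2.06, PRM1 by 1.64, FUS1 by 0.75 and SST2 by 0.42. The Ty3 gene YGR109W-A was higher by 1.29, on a probe set with shared sequence. The arrays labelled double deletion carry alpha mating-type transcripts, and the part of that in these differences cannot be told apart from the deletions.

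Among the 47 probe sets for reporter and marker sequences, which enter no comparison above, 1 read 15.06 in the ada2 arrays against 4.68 in wild type, and 15.04 in nup60 and 15.23 in the labelled double deletion. Its ID holds a sequence accession and no gene name, and by the labels every group but wild type carries the kanamycin marker. In 3 further sets, whose IDs share 1 accession, ada2 also read above wild type by more than 1 log2 unit, at 14.47 against 13.39, 14.17 against 12.42, and 14.38 against 13.34. Their nup60 means were 14.05, 14.03 and 14.02. The other sets of that accession differed less, with ada2 at 8.72 and 9.52 against 8.59 and 8.99 in wild type. Another set, whose ID holds the same accession as the set at 15.06 in ada2, read 8.69 in the labelled double deletion. The other 3 groups had means of 5.00 to 5.23 in it, under background. The sequences behind these sets were not matched here.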

How the results depend on the processing

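Across 20 alternative settings the number of rises of at least 2-fold lay between 66 and 78 and that of falls between 54 and 65. None of the larger changes of the main fit lost its call or turned its direction in a setting that tested it. Genes read only by shared-sequence probe sets were not tested when such sets were removed. All rises numbered 1024 to 1307 and all falls 947 to 1251 when 1 array was left out. Other settings at the same threshold gave 1066 to 1718 rises and 1014 to 1729 falls. At an adjusted p below 0.01 there were 897 rises and 822 falls. Array weights gave 1718 rises and 1729 falls, median centring of each array 1400 and 1023, and the 6 arrays alone 1066 and 1014. The replicate numbers of the labels do not pair the samples: same-numbered wild-type and ada2 arrays had correlations of deviations of -0.19, -0.06 and -0.19. A fit with the replicate number as a block gave 1114 rises and 1095 falls, of which 68 and 58 reached 2-fold. In these other settings at the same threshold, 40 to 44 of the larger rises were higher in ada2 than in nup60, 15 to 18 lower, and 54 to 56 of the falls lower. Against nup60 the labelled double deletion was higher for 50 to 54 of the rises and lower for 44 to 48 of the falls. In these counts, genes left untested by the removal of shared-sequence probe sets were taken as not passing. That setting gave the low ends of 40 and 50 for rises and of 54 for falls against nup60. Of 154 called genes named here, 9 lost their call in at least 1 setting, and of 36 not called 11 gained one. No called gene named here reversed its direction in any of the 20 settings, while 6 genes that were not called crossed 0 in some, such as GPH1 (-0.02, and 0.01 with median centring). The medians of 2 lists crossed 0, phosphate supply (-0.01, up to 0.04) and other acetyltransferases and deacetylases (0.02, down to -0.01). The planned search of promoter motifs was not run, since promoter sequences were not used here. Falls of genes near background are understated, since no reading goes far below it.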

Other observations

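Some paralogous pairs split in these data, and those given here were picked after their values were seen. MFA1 fell 6.56-fold and MFA2 1.29-fold, LEU9 fell 2.46-fold while LEU4 rose 1.21-fold, PHO3 fell 7.33-fold while PHO5 rose 1.79-fold, and CLB2 fell 1.51-fold while CLB1 rose 1.86-fold. The hexokinase HXK1 rose 2.78-fold and HXK2 read 14.74 in wild type and 14.79 in ada2. The test of the difference within a pair was not run.

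Wild-type array 1 lay apart from the other wild-type arrays in some genes, picked here after their values were seen. CAT8 read 7.13 there against 6.79 and 6.61, and FAA3, a long-chain fatty acyl-CoA synthetase that fell 2.08-fold in ada2, read 12.71 against 11.94 and 11.91. The part of this array's spike reading in such values was not tested gene by gene.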
